A study of Homo sapiens with 12 samples.

Results

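Complex I (NADH:ubiquinone oxidoreductase) is the entry point of the mitochondrial respiratory chain, and most of its subunits are encoded in the nucleus, so that their mRNAs must leave the nucleus before they are translated. A list of 36 nuclear NDUF genes was followed here, and all 36 were found by symbol among the 61860 genes of the deposited table. The study asked whether the serine/arginine-rich (RS) domain of the coactivator PGC-1α, which is encoded by PPARGC1A, takes part in the nuclear export of mRNAs. HEK293 Flp-In T-REx cells, a human embryonic kidney line with a single recombination site, had been made to carry a doxycycline-inducible cassette that expresses 2 chained miRNAs against endogenous PGC-1α together with a miRNA-resistant, FLAG-tagged PGC-1α. In the WT-res line the resistant protein was full length, and in the ΔRS-res line it lacked the RS domain. Both lines received doxycycline at 1 µg/ml for 6 days, so that the miRNAs are shared by all groups, and each line was selected as an individual clone.

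RNA was sequenced from whole cells (1 well) and from the cytoplasmic fraction (6 pooled wells) of each line at 3 consecutive passages, which gave 4 groups of 3 libraries. The total count per library ranged from 90333190 to 144628005, and no member had fewer than 2036 counts in any library. Passages of 1 clone measure the spread between these cultures and not between independently made lines. Of the genes listed as known in HEK293 cells, the intermediate filament gene VIM was the most abundant, at a mean of 911 CPM (read counts scaled to library size). The epithelial gene EPCAM was at 27.6 to 82.9 CPM, and CDH1 at 3.02 to 5.3 CPM in whole cells and 0.36 to 0.65 CPM in the cytoplasm. All 3 endothelial genes (PECAM1, CDH5 and VWF) and 4 of 5 immune cell genes, CD3E and PTPRC among them, stayed under 0.5 CPM in all 12 libraries, while the macrophage gene CD68 was at 1.63 to 6.19 CPM. So did 3 of 5 fibroblast and 3 of 5 kidney tubule genes, of which COL1A1 and LRP2 were the most abundant, at means of 4.65 and 38.4 CPM.

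PPARGC1A counts hold both the endogenous and the resistant transcript. PPARGC1A was at 646.7, 661.6 and 487.0 CPM in WT-res and at 341.6, 355.4 and 486.1 CPM in ΔRS-res whole-cell RNA. In the cytoplasm it was at 682.5, 552.0 and 640.7 CPM in WT-res and 296.5, 295.7 and 396.9 CPM in ΔRS-res, without overlap. In whole-cell RNA the third WT-res library thus had the level of the third ΔRS-res library. The library labelled WT-res replicate 3 goes against its label at other genes too: DDX19B was at 0.2 CPM there, against 12.1 and 12.7 CPM in the other WT-res whole-cell libraries and 0.22 to 0.26 CPM in the ΔRS-res whole-cell libraries. It was kept under its label, and the counts of called members between lines and fractions are also given without it.

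The mature complex is built from modules. The N module oxidises NADH, the Q module passes the electrons along iron-sulfur clusters to ubiquinone, and the proximal and distal membrane arm modules form the proton-pumping arm. PGC-1α is best known for acting at promoters through transcription factors such as NRF1 and the estrogen-related receptors, which drive many respiratory chain genes. The RefSeq promoter table (GRCh38.p14) held 32 of the 36 members, each as 250 bases before and 50 bases after the first listed start. The NRF1 motif GCGCANGCG was found on either strand in 9 of these 32 promoters (28.1%), and in 8.05% of 27305 promoters of all genes. Among 10224 promoters of protein-coding genes expressed in these libraries the share was 15.3%. The ERR motif AAGGTCA was found in 4 members (12.5%; 3.97% of all and 2.41% of expressed protein-coding promoters), of which NDUFA5 was matched at a RefSeq start outside its Ensembl gene span. The ETS motif CCGGAAG was in 15.6% of the members, 10.7% of all promoters and 19.6% of expressed protein-coding promoters. The YY1 motif AAGATGG was in 21.9%, 6.06% and 7.43%. No overlap between motifs was removed, and a match describes letters only. The windows below show the NRF1 match of NDUFS6, NDUFA8, NDUFA12 and NDUFAB1, as examples from the 9 members with that motif. The ERR match of NDUFS6 is shown too, chosen because that gene differed most between the lines in cytoplasmic RNA. Its 20 nearest tested genes differed as well (median log2 fold change of ΔRS-res over WT-res 0.76 with all cytoplasmic libraries). The other members with that motif, NDUFB4, NDUFS7 and NDUFA5, were at 0.03, 0.15 and 0.10 there. A link between the motif and the difference was not tested. Capitals mark the motif, and the bases are given 5′ to 3′ on the strand of the gene.
NDUFS6, NRF1, chr5:1801351-1801379, plus strand: cagaagccgtGCGCATGCGttagcgctaa
NDUFA8, NRF1, chr9:122159765-122159793, minus strand: gttgccggatGCGCATGCGcaggcgccgt
NDUFA12, NRF1, chr12:95003795-95003823, minus strand: acctagctctGCGCACGCGcagagccacc
NDUFAB1, NRF1, chr16:23596343-23596371, minus strand: ccgtgtgcgtCGCCTGCGCgccgccggaa
NDUFS6, ERR, chr5:1801421-1801447, plus strand: gcggcggcgaTGACCTTctgccggctg

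All 36 genes were well expressed. Levels between genes were compared as CPM per kb of transcript. Over the 12 libraries the members had a median level of 84.7 CPM per kb, and all 36 lay above the median of 10.9 CPM per kb of the 12583 protein-coding genes with a mean of at least 1 CPM. The highest levels were those of NDUFS5, an accessory subunit of the proximal arm (mean of 12 libraries 233 CPM per kb), NDUFS6, a zinc-binding accessory subunit of the N module (218 CPM per kb), and NDUFB10 of the distal arm (206 CPM per kb). Their library ranges overlapped, at 200 to 301, 122 to 334 and 183 to 244 CPM per kb. The lowest levels were those of NDUFB6 in the distal arm (28.0 CPM per kb), NDUFV3 in the N module (29.1 CPM per kb) and NDUFC1 in the proximal arm (41.7 CPM per kb). NDUFB6 and NDUFV3 overlapped between libraries (25.0 to 32.6 and 25.4 to 34.2 CPM per kb), while NDUFC1 (36.8 to 50.7 CPM per kb) lay above both. The level of the highest member was 8.32 times that of the lowest.

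The 6 core subunits in the list, among them those that carry the flavin and iron-sulfur clusters, were not the most abundant. Per length NDUFV2 was at 101, NDUFS8 at 91.6, NDUFS3 at 87.8 and NDUFV1 at 75.7 CPM per kb. NDUFS1, the largest subunit, was at 61.5 and NDUFS7 at 50.8 CPM per kb. The members are short mRNAs: the canonical transcript had a median of 684 bases and 4 exons, against 3487 bases and 9 exons over 12573 expressed protein-coding genes. Of the members 72.2% were under 1000 bases long, against 5.38% of those genes. In raw abundance the order differed, and NDUFS1 with its transcript of 11660 bases had the highest mean CPM (274 CPM).

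Summed over the 36 members, the level was 2649.0 ± 127 CPM (SD, n = 3) in WT-res and 2686.4 ± 93.4 CPM in ΔRS-res whole-cell RNA. In cytoplasmic RNA it was 2777.1 ± 151 CPM in WT-res and 2937.5 ± 189 CPM in ΔRS-res. The ranges of the lines overlapped in both fractions (2557.6 to 2794.1 and 2580.0 to 2754.8 CPM in whole cells, 2606.6 to 2894.1 and 2807.7 to 3154.3 CPM in the cytoplasm). The WT-res whole-cell sums left without the library labelled WT-res replicate 3, 2557.6 and 2595.4 CPM, still overlapped with those of ΔRS-res. As a sum, complex I mRNA was therefore not separated between the lines. In bulk samples, fewer cells with an mRNA and less of it per cell cannot be told apart.

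The comparison of whole-cell RNA asked whether loss of the RS domain changed the amount of these mRNAs. The median log2 fold change (ΔRS-res over WT-res) of the members was 0.05, with 6 members below and 30 above 0, and the median over all genes was 0.004. With edgeR's quasi-likelihood test and Benjamini-Hochberg adjustment over 26793 genes, 0 of the 36 members passed an adjusted p of 0.05, and so did 0 of all genes (0.0%). At the study's threshold, an unadjusted p under 0.05 and a log2 change beyond 0.5, 2 members were lower, NDUFA5 and NDUFB3 (5.56% of members and 5.16% of genes), and 0 were higher (1.18% of genes). DESeq2 called the same 2 members lower, with 2.97% of genes called lower. With the replicate number as a block edgeR also called both members lower, beside 5.19% of genes. That fit assumes that the numbers pair the whole-cell libraries, which the data left unsettled for replicates 1 and 2. Without the whole-cell library labelled WT-res replicate 3, NDUFB3 and NDUFS1 were called lower and NDUFS6 higher, where 1.18% of genes were called lower and 0.886% higher, and the members' median was 0.08. The number of members at an unadjusted p under 0.05 was 2 lower and 0 higher with all libraries (8.54% and 4.0% of all genes), 5 and 4 with the block (13.4% and 12.3%), and 3 and 5 without that library (10.6% and 9.42%). The share of all genes at that threshold thus rose in the same fits.

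NDUFS6 was at 64.1 and 63.0 CPM in WT-res whole-cell replicates 1 and 2, at 132.5 CPM in the whole-cell library labelled WT-res replicate 3, and at 139.0, 128.5 and 131.3 CPM in ΔRS-res. The third library had the ΔRS-res level, and the groups overlapped. The log2 fold change was 0.61 ± 0.270 (SE; edgeR adjusted p = 0.413), and 1.05 ± 0.0700 without that library (edgeR adjusted p = 0.000852). In the cytoplasm the levels were 70.2, 78.2 and 77.6 CPM in WT-res and 154.4, 173.2 and 143.6 CPM in ΔRS-res. The groups did not overlap, and no cytoplasmic library of 1 line came near the other line. The cytoplasmic log2 fold change was 1.07 ± 0.0924 (edgeR adjusted p = 0.00202, all 6 libraries).

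NDUFS1 carries several of the iron-sulfur clusters of the N module. It was at 292.1, 298.7 and 225.5 CPM in WT-res and 228.1, 228.2 and 238.8 CPM in ΔRS-res whole-cell RNA. The third WT-res value again lay at the ΔRS-res level. Its log2 fold change was -0.24 ± 0.117 (edgeR adjusted p = 0.458), and -0.37 ± 0.0614 without the whole-cell library labelled WT-res replicate 3 (edgeR adjusted p = 0.0314). In the cytoplasm it was at 317.5, 344.5 and 348.1 CPM in WT-res and 247.7, 257.5 and 265.1 CPM in ΔRS-res, and the groups did not overlap.

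NDUFA10, an accessory subunit of the proximal arm, was at 140.8, 138.3 and 133.6 CPM in WT-res whole-cell RNA. In ΔRS-res it was at 105.3 and 104.9 CPM in replicates 1 and 2, but at 138.1 CPM in replicate 3. The third ΔRS-res library was thus at the WT-res level, and the groups overlapped. The log2 fold change of -0.26 ± 0.116 did not pass (edgeR adjusted p = 0.429), nor did that of -0.28 ± 0.124 without the whole-cell library labelled WT-res replicate 3 (edgeR adjusted p = 0.261). The cytoplasmic values were 142.8, 135.6 and 143.9 CPM in WT-res and 101.6, 104.7 and 123.7 CPM in ΔRS-res, without overlap and with replicate 3 again the highest of ΔRS-res.

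NDUFB3, a subunit of the distal arm, was at 53.3, 57.9 and 38.8 CPM in WT-res and 34.3, 35.8 and 28.5 CPM in ΔRS-res whole-cell RNA. All ΔRS-res libraries were lower than all WT-res libraries. The log2 fold change was -0.62 ± 0.165 (edgeR adjusted p = 0.217), -0.60 ± 0.0651 with the replicate block (edgeR adjusted p = 0.0226) and -0.78 ± 0.108 without the whole-cell library labelled WT-res replicate 3 (edgeR adjusted p = 0.0162). In the cytoplasm the groups overlapped, at 48.3, 62.2 and 61.8 CPM against 43.5, 56.2 and 36.9 CPM. HYCC2 overlaps NDUFB3 on the other strand, and reads of overlapping exons could not be told apart because the strand setting of the counting was not given in the sources used here. NDUFB3 and NDUFA5 were singled out after their values were seen.

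NDUFA5 is a small accessory subunit of the Q module. It was at 65.6, 92.3 and 107.2 CPM in WT-res and 50.6, 57.5 and 53.0 CPM in ΔRS-res whole-cell RNA. The groups did not overlap, and WT-res was the more variable group (88.4 ± 21.1 CPM against 53.7 ± 3.52 CPM, SD, n = 3). Its log2 fold change was -0.73 ± 0.165 (edgeR adjusted p = 0.213), and -0.70 ± 0.112 with the replicate block (edgeR adjusted p = 0.0286). Without the whole-cell library labelled WT-res replicate 3 it was -0.58 ± 0.140 (edgeR adjusted p = 0.0943). Without WT-res whole-cell replicate 1, the WT-res library nearest ΔRS-res for this gene, it was -0.91 (edgeR adjusted p = 0.0174). Leaving out the nearest library widens the difference by construction, and -0.91 and -0.58 were the extremes of the fits without 1 library. In the fit without replicate 1, 567 of 26836 genes were called lower and 35 higher. In the cytoplasm NDUFA5 was at 112.7, 126.1 and 128.9 CPM in WT-res and 125.7, 140.9 and 125.2 CPM in ΔRS-res, and the ranges overlapped (log2 fold change 0.10 ± 0.0857, edgeR adjusted p = 0.783).

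NDUFS6, NDUFS1 and NDUFA10 had been listed because stretches of their chromosomes differ between the lines, so each member was set beside its 20 nearest tested genes, 10 on each side. NDUFS6 lies at chr5:1801407-1816048 (GRCh38, plus strand, 3 annotated transcripts, canonical transcript of 4 exons). Without the whole-cell library labelled WT-res replicate 3, its neighbours, which start between 1317752 and 5395972, had a median of 0.98 on the log2 scale, and 18 of 20 were higher in ΔRS-res. NDUFS6 itself was at 1.05. In the cytoplasm (6 libraries) the neighbours had a median of 0.76 and NDUFS6 was at 1.07. SDHA, a complex II subunit on the same chromosome arm, was at 70.0 and 68.0 CPM in WT-res whole-cell replicates 1 and 2, at 327.6 CPM in the library labelled replicate 3 and at 329.7 to 382.3 CPM in ΔRS-res whole-cell RNA.

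On chromosome 2, NDUFB3 (chr2:201071433-201085750, plus strand), NDUFS1 (chr2:206114817-206159509, minus strand) and NDUFA10 (chr2:239892450-240025743, minus strand) had neighbours that were lower in ΔRS-res. Without the whole-cell library labelled WT-res replicate 3 the neighbours' median was -0.55 for NDUFB3, -0.57 for NDUFS1 and -0.33 for NDUFA10. The members were at -0.78, -0.37 and -0.28 there. Of the 20 neighbours 18, 20 and 17 were lower. In the cytoplasm with 6 libraries the medians were -0.43, -0.49 and -0.45, and the members themselves were at -0.33, -0.38 and -0.35. A change of the gene itself and a change of its chromosomal stretch cannot be told apart here. With all 6 whole-cell libraries the medians were -0.43, -0.40 and -0.20, with the members at -0.62, -0.24 and -0.26, and that around NDUFS6 was 0.47, with NDUFS6 at 0.61.

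The other 32 members had neighbours within -0.24 and 0.28 in whole-cell RNA without the whole-cell library labelled WT-res replicate 3, and within -0.19 and 0.23 in the cytoplasm with 6 libraries. The log2 fold changes of those 32 members ran from -0.58 to 0.33 (median 0.09) and from -0.04 to 0.26 (median 0.13). NDUFA5, on chromosome 7, was at -0.73 with all 6 whole-cell libraries, where its neighbours had a median of -0.01 (10 lower and 10 higher). Without the library labelled WT-res replicate 3 it was at -0.58 and their median was 0.28 (9 lower and 11 higher). In the 4 cytoplasmic libraries the study kept, NDUFV1 and NDUFS8, which lie near each other on chromosome 11, had neighbours at -0.32 and -0.48 while they themselves were at 0.15 and 0.08. NDUFB3's neighbours were at -0.23 in those 4 libraries.

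The comparison of cytoplasmic RNA asked whether complex I mRNAs were reduced outside the nucleus when the RS domain was missing. In the 4 libraries the study kept (numbers 1 and 3 of WT-res, 1 and 2 of ΔRS-res) 31 members had a log2 fold change above 0 and 5 below, with a median of 0.20 against 0.007 over all genes. By edgeR with adjustment over 25814 genes, 12 members (33.3%) were called higher and 2 (5.56%) lower. One of the WT-res libraries in this fit, replicate 1, stood apart from WT-res replicates 2 and 3 at nuclear and mitochondrial RNA: MALAT1 was at 1783.3 CPM against 993.1 and 1110.0 CPM, NEAT1 at 128.6 against 80.9 and 86.8 CPM, and mitochondrial transcripts made up 0.328% of its counts against 0.129 and 0.092%. It also had the lowest summed level of the members in the cytoplasm, 2606.6 CPM. Over all genes the libraries not kept resembled the other line (chi-square per gene, larger where libraries differ more). WT-res replicate 2 was at 41.1, 54.0 and 174.9 from ΔRS-res replicates 1, 2 and 3, and at 81.8 and 93.1 from WT-res replicates 1 and 3. ΔRS-res replicate 3 was at 71.3 and 114.8 from WT-res replicates 1 and 3, and at 104.3 and 122.0 from ΔRS-res replicates 1 and 2. The part of these differences in the calls was not tested. Over all genes 10.7% were called higher and 11.4% lower. Among 6886 protein-coding genes at least as abundant as the lowest member, 22.2% were called higher and 15.7% lower. The higher count depended on single libraries: it was 7 without WT-res replicate 1 (11.1% of all genes higher), 27 without WT-res replicate 3 (12.2%), 5 without ΔRS-res replicate 1 (4.01%) and 1 without ΔRS-res replicate 2 (3.01%).

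The largest increases among the called members were those of NDUFS6 (1.17 ± 0.0761, edgeR adjusted p = 0.000781), NDUFS3, a core subunit of the Q module (0.39 ± 0.0663, edgeR adjusted p = 0.0104), and NDUFC2 of the proximal arm (0.36 ± 0.0773, edgeR adjusted p = 0.0214). NDUFS3 was at 59.3 and 66.2 CPM in the WT-res libraries kept and 78.6 and 83.6 CPM in ΔRS-res. NDUFC2 was at 49.3 and 54.1 CPM against 61.5 and 69.7 CPM. In the libraries not kept, WT-res replicate 2 had 72.5 CPM of NDUFS3 and 57.4 CPM of NDUFC2, and ΔRS-res replicate 3 had 72.5 and 50.5 CPM, so that the lines no longer separated. The other 9 called higher were NDUFB2, NDUFA8, NDUFAB1, NDUFB7, NDUFV2, NDUFB9, NDUFA11, NDUFB10 and NDUFV3, with log2 fold changes from 0.17 to 0.35. Reads of NDUFS3 and of its overlapping genes PTPMT1, KBTBD4 and CELF1 could not be told apart where exons overlap.

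The 2 members called lower were NDUFA10 (-0.45 ± 0.0435, edgeR adjusted p = 0.0019) and NDUFS1 (-0.38 ± 0.0580, edgeR adjusted p = 0.00749), both in the chromosome 2 stretches. NDUFS1 lost its call without ΔRS-res replicate 1 (edgeR adjusted p = 0.0658). NDUFB3 was at -0.12 ± 0.152 (edgeR adjusted p = 0.627). Of the remaining members outside these stretches, 0 were called lower. For those members and that direction edgeR gave 0 at an unadjusted p under 0.05 (17.6% of all genes were lower), and DESeq2 called 0 (11.0%). At the same unadjusted p 17 of these 32 members were higher, and 18 of all 36, beside 17.4% of all genes.

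With all 6 cytoplasmic libraries 1 member was called in each direction by edgeR over 25949 genes, NDUFS6 higher and NDUFS1 lower (-0.38 ± 0.0727, edgeR adjusted p = 0.0498). Over all genes 0.578% were called higher and 0.948% lower. One library that only this fit holds, ΔRS-res replicate 3, stood apart from ΔRS-res replicates 1 and 2. MALAT1 was at 1518.9 CPM there against 1152.1 and 1025.2 CPM, and mitochondrial transcripts made up 0.248% of its counts against 0.185 and 0.129%. The part of these differences in the calls was not tested. NDUFS1 lost its call whichever library was left out, with edgeR adjusted p from 0.0607 to 0.275, although its log2 fold change stayed between -0.43 and -0.36. NDUFA10 was at -0.35 ± 0.0867 (edgeR adjusted p = 0.136, and 0.0271 without ΔRS-res replicate 3). The members' median was 0.13, with 32 above and 4 below 0. At an unadjusted p under 0.05 edgeR gave 7 members higher and 2 lower, beside 5.12% and 5.66% of all genes. NDUFV1, which binds NADH, was at 0.26 ± 0.0883 and NDUFA8, of the proximal arm, at 0.26 ± 0.0809. Neither passed (edgeR adjusted p = 0.306 and 0.264), although their ΔRS-res libraries (113.8 to 136.9 CPM for NDUFV1, 63.1 to 69.9 CPM for NDUFA8) all lay above their WT-res libraries.

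By module, the cytoplasmic medians in the 4 libraries kept were 0.18 for the N module, 0.16 for the Q module, 0.23 for the proximal arm and 0.22 for the distal arm. The members called higher numbered 3 of 10, 1 of 5, 3 of 9 and 4 of 11, and NDUFAB1, the mitochondrial acyl carrier protein, made up the rest, beside the 10.7% of all genes and 22.2% of protein-coding genes at least as abundant given above. No module's median was negative with 6 cytoplasmic libraries (0.14, 0.10, 0.10 and 0.13) or with 6 whole-cell libraries (0.05, 0.06, 0.05 and 0.06), nor in whole cells without the library labelled WT-res replicate 3 (0.09, 0.08, 0.07 and 0.07). These medians are descriptions, and differences between modules were not tested.

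The study took a transcript as an export target where it was reduced in the cytoplasm (unadjusted p under 0.05, log2 change under -0.5) and not changed in whole-cell RNA. The p-values used for it here came from edgeR, while the study used DESeq2. Under that rule 17 of 317 member transcripts (5.36%) met the definition with the 4 libraries kept, beside 4.32% of all transcripts tested. With 6 libraries 7 did (2.21%), beside 1.74%. Of the 17 transcripts 7 came from NDUFA10 and 3 from NDUFS1, which lie in chromosome 2 stretches. With 6 libraries 5 of the 7 came from NDUFA10 and 1 (NDUFB3-202) from NDUFB3, in such a stretch too. In the 4 cytoplasmic libraries kept, 18 of 324 member transcripts were lower and 9 higher (4.66% and 4.12% of all transcripts). Both counts moved when 1 library was left out, and fewer transcripts were lower with the DESeq2 Wald test, as given in the last section. In whole-cell RNA 10 of 330 were lower and 2 higher (3.44% and 1.81% of all transcripts). Without the library labelled WT-res replicate 3, 13 were lower and 5 higher (3.15% and 3.13%), and the export definition was not run without it. After adjustment over all transcripts 0 passed by edgeR in the 4 cytoplasmic libraries kept and 0 in the 6 whole-cell libraries, where edgeR gave an unadjusted p under 0.05 for 14938 of 122729 and 9487 of 129700 transcripts. By the DESeq2 Wald test 5392 of the 122729 and 2601 of the 129700 passed after adjustment. With 6 cytoplasmic libraries 30 of 124558 passed by edgeR and 1660 by DESeq2, and edgeR passed 17 of 129002 whole-cell transcripts once the library labelled WT-res replicate 3 was left out. Outside those stretches NDUFB5-201 met the definition with both sets of libraries, at a mean of 2.12 CPM, with 2.0 to 2.1 CPM in WT-res and 0.9 to 1.4 CPM in ΔRS-res cytoplasmic RNA. NDUFB5-201 was chosen after its values were seen.

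Among the 68 transcripts with a mean of at least 5 CPM, those lower in the cytoplasm of ΔRS-res were NDUFS1-204, NDUFS1-205, NDUFS1-207, NDUFA10-212 and NDUFA10-243. NDUFS1-205 was at 57.3 and 59.6 CPM in the WT-res libraries kept and 31.6 and 33.7 CPM in ΔRS-res (log2 fold change -0.85 ± 0.0809). The libraries not kept crossed over, with 39.4 CPM in WT-res replicate 2 and 58.5 CPM in ΔRS-res replicate 3, and the log2 fold change with 6 libraries was -0.31 (edgeR adjusted p = 1.0). NDUFA10-212, which retains an intron, was at 24.5 and 17.9 CPM against 13.2 and 13.9 CPM, and it was lower under the same threshold with 6 libraries (-0.51 ± 0.142, edgeR adjusted p = 0.711). Higher in the 4 libraries were NDUFS6-201, NDUFB10-202, NDUFS3-203, NDUFV3-202 and NDUFV3-204. NDUFV3-202, the longest NDUFV3 transcript, was at 20.3 and 19.7 CPM in WT-res and 34.3 and 32.1 CPM in ΔRS-res (0.72 ± 0.0708, edgeR adjusted p = 0.175), while NDUFV3-201 was at -0.35 ± 0.0929. With 27.8 CPM in WT-res replicate 2 and 26.4 CPM in ΔRS-res replicate 3, the lines overlapped in NDUFV3-202 once all libraries were counted. Counts of isoforms that share exons were estimated by RSEM, which splits reads among them.

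Retained-intron transcripts took a smaller share of the counts in the cytoplasm for 22 of the 24 members that have any. The median share over all members was 1.11% in whole-cell and 0.299% in cytoplasmic RNA. In NDUFA5 the share fell from 14.3% (9.72 to 20.1%) to 2.97% (2.38 to 3.94%), and in NDUFV1 from 12.2% (10.3 to 15.0%) to 2.86% (2.18 to 3.21%). NDUFA9 and NDUFA2 were the exceptions, with 43.2% and 45.2% for NDUFA9 and 4.38% and 4.54% for NDUFA2. In whole-cell RNA the coding transcripts NDUFA5-201, NDUFA5-206, NDUFA5-211 and NDUFA5-212 and the nonsense-mediated decay transcript NDUFA5-224 were lower in ΔRS-res under the transcript threshold. The most abundant of them, NDUFA5-211, was at 30.2, 45.1 and 49.7 CPM in WT-res and 21.5, 23.2 and 18.4 CPM in ΔRS-res (-0.94 ± 0.198, edgeR adjusted p = 0.555). The coding transcript NDUFA5-218 overlapped between the lines (10.0 to 16.4 and 9.4 to 11.6 CPM), as did the retained-intron transcript NDUFA5-210 (5.8 to 11.6 and 5.2 to 8.0 CPM).

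The comparison of the fractions asked how far the mRNAs are enriched in the cytoplasmic fraction relative to all genes, within each line. Every library was scaled to its own size, so the values do not give the share of an mRNA that lies in the cytoplasm. The nuclear RNAs NEAT1 and KCNQ1OT1 were lower in the cytoplasm in all 6 pairs. MALAT1 was lower in 5 of them, but not in WT-res replicate 1 (log2 ratio 0.14). In WT-res 3 of 36 members (8.33%) were called higher and 2 (5.56%) lower in the cytoplasm by edgeR over 26686 genes. In ΔRS-res 7 (19.4%) were called higher and 3 (8.33%) lower. Over all genes 16.9% were higher and 24.8% lower in WT-res, and 16.6% and 24.3% in ΔRS-res. Of the protein-coding genes at least as abundant as the lowest member, 45.8% in WT-res and 45.0% in ΔRS-res were called higher, and 14.6% and 14.8% lower. The difference between these shares and those of the members was not tested. The members' medians were 0.08 and 0.14 on the log2 scale, against -0.054 and -0.062 over all genes. With the size factors of DESeq2 the all-gene medians moved up, to 0.015 and 0.014. In WT-res 7 members were then called higher and 1 lower, beside 21.0% and 23.3% of all genes, and in ΔRS-res 12 and 1, beside 20.4% and 22.6%. Of the protein-coding genes at least as abundant, 53.9% and 53.4% were then called higher.

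NDUFB9, a distal arm subunit on chromosome 8, was the member most reduced in the cytoplasm. It was at 92.3, 90.7 and 99.6 CPM in WT-res and 102.4, 96.0 and 101.2 CPM in ΔRS-res whole-cell RNA. In the cytoplasm it was at 47.2, 51.8 and 51.5 CPM in WT-res and 55.2, 59.9 and 49.3 CPM in ΔRS-res. No cytoplasmic library overlapped with any whole-cell library, and the log2 ratio within pairs ran from -0.97 to -0.81 in WT-res and from -1.04 to -0.68 in ΔRS-res. The fitted differences were -0.91 ± 0.0799 (-0.87 ± 0.0833 without the whole-cell library labelled WT-res replicate 3) and -0.87 ± 0.0798, and they did not differ detectably between the lines (interaction 0.04 ± 0.112, edgeR unadjusted p = 0.699). The main coding transcript, NDUFB9-201, carried it, with 77.7 to 89.9 CPM in whole cells and 41.1 to 52.2 CPM in the cytoplasm. TATDN1 overlaps NDUFB9 on the other strand, with a mean count of 32.93% of that of NDUFB9, and its part in the value was not tested.

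NDUFC2 was lower in the cytoplasm of both lines as well (-0.38 ± 0.108 and -0.30 ± 0.108, edgeR adjusted p = 0.0141 and 0.0423), and at -0.40 ± 0.122 in WT-res without the whole-cell library labelled WT-res replicate 3. It went from 67.9 to 71.9 CPM in WT-res whole cells to 49.3 to 57.4 CPM in the cytoplasm, without overlap, but ΔRS-res values overlapped (69.7 to 81.1 and 50.5 to 69.7 CPM). NDUFV3 was lower in ΔRS-res (-0.22 ± 0.0812, edgeR adjusted p = 0.0483), with 94.2 to 105.2 CPM in whole cells and 84.2 to 85.0 CPM in the cytoplasm. In WT-res it was at -0.18 ± 0.0812 (edgeR adjusted p = 0.102) and lower in the cytoplasm in 3 of 3 pairs, as in ΔRS-res. The ΔRS-res calls of NDUFC2 and NDUFV3 were lost with the DESeq2 size factors (edgeR adjusted p = 0.151 and 0.129). The WT-res call of NDUFC2 was lost with them too (edgeR adjusted p = 0.0522), and without WT-res cytoplasmic replicate 1 (edgeR adjusted p = 0.0573). The ΔRS-res calls were lost under most of the 18 alternatives, 11 for NDUFC2 and 12 for NDUFV3, among them leaving out ΔRS-res whole-cell replicate 1 (edgeR adjusted p = 0.152 and 0.0762).

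NDUFA5, NDUFV2 and NDUFS1 were called higher in the cytoplasm of WT-res, at 0.47 ± 0.143, 0.27 ± 0.0666 and 0.31 ± 0.0957 (edgeR adjusted p = 0.0196, 0.00707 and 0.0226). NDUFS1 lost its call without WT-res cytoplasmic replicate 2 or 3, without ΔRS-res cytoplasmic replicate 2, with the 4 cytoplasmic libraries kept and with no filter on low counts (edgeR adjusted p from 0.0506 to 0.114). NDUFA5 lost its call without WT-res cytoplasmic replicate 3 and with the 4 libraries kept (edgeR adjusted p = 0.0628 and 0.0536). Without the whole-cell library labelled WT-res replicate 3, 8 members were called higher (22.2%; 17.8% of all genes) and 2 lower (23.1% of all genes), and the members' median was 0.17. The 8 were NDUFA5 at 0.63, NDUFS4 at 0.38, NDUFB5 at 0.31, NDUFV2 at 0.30, NDUFA8 at 0.26, NDUFS6 at 0.25, NDUFB7 at 0.24 and NDUFS1 at 0.19. NDUFS6 changed sign with that library, from -0.20 ± 0.226 with it to 0.25 ± 0.0863 without it (edgeR adjusted p = 0.0416). In ΔRS-res the largest increases among the called members were those of NDUFA5 (1.28 ± 0.145, edgeR adjusted p = 2.26e-05), NDUFS4, an accessory subunit of the N module (0.45 ± 0.161, edgeR adjusted p = 0.0402), and NDUFA12 of the same module (0.41 ± 0.0865, edgeR adjusted p = 0.00248). NDUFB3 was at 0.47 ± 0.179 and was not called (edgeR adjusted p = 0.0536). In the fit without the whole-cell library labelled WT-res replicate 3, NDUFB3 and NDUFS6 were called higher in ΔRS-res as well, which made 9 members (25.0%; 18.6% of all genes), with 3 lower (25.3% of all genes).

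NDUFS4 in ΔRS-res went from 27.4, 28.3 and 32.7 CPM in whole cells to 37.0, 42.3 and 41.8 CPM in the cytoplasm, and NDUFA12 from 63.3, 59.7 and 60.8 to 79.1, 91.1 and 73.7 CPM. In both genes the fractions of ΔRS-res did not overlap. NDUFS4 lost its call without either of ΔRS-res whole-cell replicates 1 and 2 or cytoplasmic replicates 2 and 3, and with the 4 cytoplasmic libraries kept (edgeR adjusted p from 0.0856 to 0.12). NDUFV2, NDUFAB1, NDUFA8 and NDUFB10 were the remaining members called higher in ΔRS-res, with values from 0.21 to 0.39.

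The interaction of fraction and line tested whether the difference between the fractions itself differed between the lines. By edgeR 0 of 36 members passed, as did 1 of 26686 genes (0.00375%), and DESeq2 also called 0 members. At an unadjusted p under 0.05 there was 1 member, NDUFA5 (0.81 ± 0.202, edgeR unadjusted p = 0.00177, adjusted p = 0.702). Of all 26686 genes, 1115 were higher and 357 lower at that threshold. With the replicate block NDUFA5 was at 0.79 ± 0.126 (edgeR adjusted p = 0.106), and without WT-res whole-cell replicate 1, its lowest WT-res library, at 0.99 (edgeR adjusted p = 0.00454). In the fit without replicate 1, 434 of 26668 genes were called higher and 3 lower. Without the whole-cell library labelled WT-res replicate 3 NDUFA5 was at 0.65 (edgeR adjusted p = 0.889), and the members' median interaction was 0.00 against 0.05 with that library. Its log2 ratio within pairs was 0.78, 0.45 and 0.27 in WT-res and 1.31, 1.29 and 1.24 in ΔRS-res. The ratio was higher in every ΔRS-res pair than in the WT-res pairs of replicates 1 and 2. The lowest ratio, 0.27, rests on the whole-cell library labelled WT-res replicate 3, and the lower whole-cell level in ΔRS-res described above enters the comparison.

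**Figure D1:**
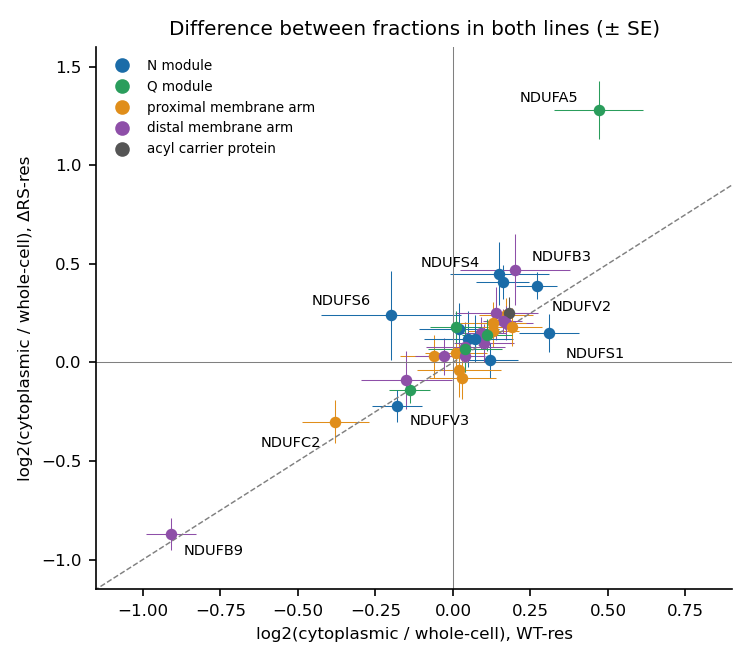
Log2 difference between cytoplasmic and whole-cell RNA (± SE) of each of the 36 members in WT-res (x axis) and ΔRS-res (y axis), coloured by module, with the dashed line marking equal values. NDUFB9 lies near the line at -0.91 and -0.87, and NDUFA5 lies above it at 0.47 and 1.28.

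Other genes of the same pathway were described alongside. Of 16 assembly factors, which build complex I without being part of it, 3 were called higher and 0 lower in the 4 cytoplasmic libraries kept (median 0.09; 10.7% of all genes and 22.2% of protein-coding genes at least as abundant as the lowest member were higher), the largest increase being that of NDUFAF8 (0.65 ± 0.102, edgeR adjusted p = 0.00824). With 6 cytoplasmic libraries NDUFAF8 was at 0.33 ± 0.182 (edgeR adjusted p = 0.595). The lowest in the 4 libraries was NDUFAF2, at -0.09 ± 0.110. In whole-cell RNA 0 were called, with TMEM126B lowest (-0.49 ± 0.133, edgeR adjusted p = 0.217), TMEM186 highest (0.18 ± 0.0960, edgeR adjusted p = 0.496) and 2 lower at an unadjusted p under 0.05 (8.54% of all genes). With the replicate block 1 was called lower (5.19% of all genes), with 2 lower and 3 higher at an unadjusted p under 0.05 (13.4% and 12.3%), and without the whole-cell library labelled WT-res replicate 3 also 1 was called lower (median 0.04; 1.18% of all genes). TMEM126B was again lowest without that library, at -0.60, but ECSIT was highest, at 0.27. Of 37 nuclear subunits of complexes III, IV and V, 8 were called higher and 0 lower in those 4 libraries (median 0.22), beside the same shares of other genes, with ATP5MF at 0.50 ± 0.122 and ATP5MC3 at -0.12 ± 0.0568. Their whole-cell median was 0.09, with 0 called and 1 at an unadjusted p under 0.05, UQCRB (-0.35 ± 0.106), and ATP5F1B was highest (0.23 ± 0.122, edgeR adjusted p = 0.502). With the replicate block 2 were lower and 11 higher at an unadjusted p under 0.05 (13.4% and 12.3% of all genes). When the whole-cell library labelled WT-res replicate 3 was left out, the median was 0.18, with 2 lower and 18 higher at an unadjusted p under 0.05 (10.6% and 9.42% of all genes) and 0 called in either fit. ATP5F1B was again highest without that library, at 0.37, and ATP5MC3 was lowest, at -0.31. With 6 cytoplasmic libraries 0 genes of either list were called by edgeR, with 1 assembly factor and 8 subunits higher (5.12% of all genes) and 0 and 1 lower (5.66%) at an unadjusted p under 0.05, and the highest of the 37 was ATP5F1B (0.28 ± 0.0818, edgeR adjusted p = 0.209). Differences between the lists were not tested.

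Between the fractions, 7 of the 37 subunits were higher and 1 lower in the cytoplasm of WT-res, and 8 higher and 1 lower in that of ΔRS-res. Of all genes 16.9% and 16.6% were higher and 24.8% and 24.3% lower, and of protein-coding genes at least as abundant as the lowest complex I member 45.8% and 45.0% were higher and 14.6% and 14.8% lower. With the replicate block 15 were higher in each line (22.5% and 20.6% of all genes higher, 26.5% lower in both lines), and without the whole-cell library labelled WT-res replicate 3 the counts higher were 14 and 12 (17.8% and 18.6%). COX6A1 of complex IV was the most reduced of those 37 genes (-1.26 ± 0.111 in WT-res and -1.30 ± 0.112 in ΔRS-res). It was at 181.0 to 226.3 CPM in whole cells and 76.7 to 95.5 CPM in the cytoplasm. The highest were ATP5PB in WT-res (0.35 ± 0.0815) and UQCRB in ΔRS-res (0.72 ± 0.117). Without the whole-cell library labelled WT-res replicate 3, UQCRC2 was the highest in WT-res, at 0.50. Of the 16 assembly factors 5 were higher and 2 lower in WT-res, and 4 higher and 2 lower in ΔRS-res, with 8 higher in WT-res under the block and 5 higher and 2 lower in each line without that library (23.1% and 25.3% of all genes lower there). NDUFAF6 was lower in both lines (-0.55 ± 0.104 and -0.47 ± 0.104) and NDUFAF4 higher (0.51 ± 0.106 and 0.93 ± 0.106).

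The 7 complex I subunits encoded by mitochondrial DNA are made inside the organelle and need no nuclear export. All 7 were lower in the cytoplasmic fraction of both lines (24.8% and 24.3% of all genes were), with median log2 differences of -3.45 (-3.40 without the whole-cell library labelled WT-res replicate 3) and -3.10, from MT-ND4 (-2.69 and -2.54) to MT-ND6 (-4.79 and -4.61). Mitochondrial transcripts made up 1.923 to 2.648% of the counts in whole-cell libraries and 0.092 to 0.328% in cytoplasmic libraries. The WT-res cytoplasmic replicate 1 kept the most, with MT-ND4 at 659.8 CPM against 254.3 and 214.9 CPM in replicates 2 and 3. Between the lines in whole-cell RNA all 7 lay below 0 (median -0.33, from -0.42 in MT-ND6 to -0.17 in MT-ND3) and 0 passed by edgeR, with 5 at an unadjusted p under 0.05 (8.54% of all genes lower). With the replicate block 2 of the 7 were called lower (5.19% of all genes), and without the whole-cell library labelled WT-res replicate 3 0 were (median -0.24, with 4 at an unadjusted p under 0.05 beside 10.6% of all genes). In the 4 cytoplasmic libraries kept all 7 lay below 0, with 0 called and a median of -0.55, from -0.70 in MT-ND4L to -0.14 in MT-ND1. With 6 cytoplasmic libraries the median was -0.09, and 0.04 with the replicate block, and edgeR gave 0 calls and 0 genes at an unadjusted p under 0.05 in all these cytoplasmic fits.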

How the data were processed

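RNA was measured by sequencing after depletion of ribosomal RNA, as 100-base paired reads, in whole-cell and cytoplasmic RNA of the WT-res and ΔRS-res lines. The authors ran nf-core/rnaseq (Trim Galore, STAR and RSEM on GRCh38 with the Ensembl annotation) and deposited RSEM expected counts per transcript, not normalized, in 1 table with 12 columns. Here these expected counts were summed per gene and rounded. Identifiers were matched to GENCODE 44 (99.83% of genes, 99.94% of counts). Genes with a mean count of 2 or less in the libraries compared were left out.

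The main test was edgeR 4.0.16 (quasi-likelihood, TMM, R 4.3.3), with Benjamini-Hochberg adjustment over all genes tested. The line comparisons used the libraries of 1 fraction; the fraction and interaction tests used 1 fit over all 12. A call is an adjusted p under 0.05. For transcripts the study's threshold was used, an unadjusted p under 0.05 with a log2 change over 0.5. CPM values share 1 TMM normalization over the 12 libraries. CPM per kb divides by transcript length. The standard errors (SE) given with edgeR values were derived from the test, as the size of the log2 fold change divided by the square root of the F statistic.

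The study's own analysis kept 4 of the 6 cytoplasmic libraries, and both sets are given. Deviations of same-numbered whole-cell libraries of the 2 lines were correlated (r = 0.545, 0.55 and 0.683 over 14938 genes), so replicate numbers were taken to pair them. Deviations cancel out within a group, so 1 outlying replicate number shared by both lines can make every correlation positive. By chi-square per gene, WT-res replicate 1 was at 43.27 and 42.96 from ΔRS-res replicates 1 and 2, and WT-res replicate 2 at 104.47 and 77.21. Deviations of cytoplasmic libraries were taken in the same way. Those of cytoplasmic libraries were not all correlated (-0.42, 0.619 and 0.467). Whole-cell and cytoplasmic RNA of 1 line and number share a cell pellet ID in the study's sample sheet, although its methods give separate wells for the 2 fractions, and their deviations were correlated in 5 of 6 pairs (0.466 to 0.797), but not in WT-res replicate 1 (-0.167).

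The alternatives were the DESeq2 1.42.0 Wald test and size factors, other filters on low counts, the replicate block, and leaving out each library. In each of 66 pairs the libraries differed by more than counting error (chi-square per gene of at least 15.81).

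All 36 members were described by count and range. Full values were given for NDUFS1, NDUFA10, NDUFS6 and the called members (with over 6 calls, the 3 largest in each direction), and for the 3 highest and 3 lowest levels. Members whose neighbours' median exceeded 0.3 in size were named, as were the genes of the other lists with the largest changes between lines or fractions. The members and lists were chosen with earlier results of these data known. Amino acid sequences were not used here.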

Additional observations from a re-analysis of the deposited data

How the results depend on the processing

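Leaving out 1 library moved the members' median log2 fold change from 0.02 to 0.09 in whole-cell RNA, 0.10 to 0.30 in the 4 and 0.03 to 0.17 in the 6 cytoplasmic libraries, 0.03 to 0.17 and 0.08 to 0.17 between the fractions of WT-res and ΔRS-res, and -0.02 to 0.11 in the interaction, where its sign changed. Beside each count of called members below stands, in parentheses, the share of all genes called in the same fit. In whole-cell RNA the count lower rose from 0 to 2 with the DESeq2 Wald test (2.97%), with the replicate block (5.19%) and at the unadjusted threshold (5.16%), and leaving out 1 library gave 0 to 2 lower (0.0 to 2.11%) and 0 to 1 higher (0.0 to 0.886%). In the 4 cytoplasmic libraries the unadjusted threshold gave 0 lower (7.86%) and 1 higher (5.21%), and leaving out 1 library gave 1 to 2 lower (4.55 to 13.4%) and 1 to 27 higher (3.01 to 12.2%). With 6 cytoplasmic libraries the count lower was 0 with the DESeq2 size factors (0.936%), 2 with the DESeq2 Wald test (1.95%) and 0 at the unadjusted threshold (3.49%), and leaving out 1 library gave 0 to 1 lower (0.204 to 0.915%). Between fractions in WT-res the DESeq2 size factors gave 1 lower (23.3%) and 7 higher (21.0%), the DESeq2 Wald test 8 higher (5863 of 26686) and the 4 cytoplasmic libraries kept by the study 1 higher (15.9%), and leaving out 1 library gave 1 to 3 lower (20.7 to 25.5%) and 1 to 8 higher (11.2 to 17.8%). In ΔRS-res the DESeq2 size factors gave 1 lower (22.6%) and 12 higher (20.4%), no filter on low counts 1 lower (14.4%), the DESeq2 Wald test 1 lower (22.2%) and 12 higher (21.3%) and the 4 cytoplasmic libraries 1 lower (23.4%), and leaving out 1 library gave 1 to 3 lower (21.2 to 25.3%) and 3 to 9 higher (12.9 to 18.6%). In the interaction, leaving out 1 library gave 0 to 1 higher (0.0 to 1.63%).

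Whole-cell member transcripts called higher numbered 1 with no filter (1.59% of all transcripts), 4 with the DESeq2 Wald test (1.95%) and 4 with the replicate block (2.15%), and leaving out 1 library gave 6 to 16 lower (2.14 to 3.70%) and 0 to 5 higher (1.36 to 3.13%). In the 4 cytoplasmic libraries the DESeq2 Wald test gave 11 lower (3.95%), and leaving out 1 library gave 9 to 12 lower (4.02 to 5.54%) and 5 to 17 higher (2.88 to 6.05%). With 6 libraries the replicate block gave 3 higher (1.76%), and leaving out 1 library gave 4 to 9 lower (1.55 to 2.87%) and 3 to 6 higher (1.53 to 2.52%).

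Directions reversed in a few cases. NDUFB3 in the 4 cytoplasmic libraries was at 0.07 without WT-res replicate 3 and 0.05 without ΔRS-res replicate 1, and leaving out 1 library gave -0.32 to 0.07. NDUFS6 was at 0.25 between fractions in WT-res (range -0.39 to 0.25) and at -0.01 in the interaction (range -0.01 to 0.62) without the whole-cell library labelled WT-res replicate 3. NDUFA10 between fractions in ΔRS-res was at 0.00 with the DESeq2 size factors and with the DESeq2 Wald test, and at 0.07 without ΔRS-res whole-cell replicate 3 (range -0.18 to 0.07), where its interaction was 0.03 (range -0.20 to 0.03). The cause of these shifts was not tested. The replicate block changed no other count of members past the adjusted threshold by more than 1.5 times, and in the cytoplasm, where the numbers do not pair the lines, it left 1 member lower and 1 higher. With 2 libraries per line in the cytoplasm, or 1 after leaving one out, the spread of a lone library is taken from the other line. At these depths the spread between cultures, not counting error, limits the precision.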
